A study of Mus musculus with 9 samples.

Results

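Cells of the embryonic mouse knee that carried both a Creb5 and a Sox9 reporter were compared, gene by gene, with the midpoint of the cells that carried only 1 of them. In each of 3 litters the log2 of the normalized count plus 1 in the double-positive library was set against the mean of the same value in the 2 single-positive libraries. That difference is called the departure below, and a departure of 1 is a level 2-fold that of the midpoint. It was computed for the 17764 of 54532 genes with a mean normalized count of at least 10 over the 9 libraries. All embryos, in every group, were heterozygous for Creb5 3XHA-P2A-tdTomato, which marks Creb5-expressing cells red, and for Sox9 iresEGFP, which marks Sox9-expressing cells green. Knees were taken at E14.5, dissociated with collagenase and sorted by fluorescence into GFP-only (Sox9 reporter), RFP-only (Creb5 reporter) and double-positive cells. Each population has 1 library from each of litters 1, 2 and 5, made as bulk polyA RNA-seq from about 250000 to 500000 cells, with totals of 25199258 to 47079305 reads per library. A litter's 3 populations were isolated together, so a departure within a litter is also a within-batch value. The labels do not say how many embryos were pooled, and the gates are known only as the presence or absence of each colour. The filter fell between C78197, with a mean of 10.01, and Pcdha4, with a mean of 9.998, which was left out.

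At this stage the knee holds cartilage models of the long bones, separated by the interzone, a layer of flattened Sox9-lineage cells that later gives rise to articular cartilage, ligament and synovium. Sox9 is the transcription factor that drives the chondrocyte programme, including the cartilage collagens. Creb5 is a bZIP factor of the CREB and ATF family, which bind cAMP response elements and related sites, and in the joint it is known for its role in expression of Prg4, the gene of the lubricant lubricin. The midpoint depends on the scale. A physical 1 to 1 mixture of the single-positive populations has the arithmetic mean of their levels, the linear midpoint, and for a gene that differs widely between them this is far above the log2 midpoint. A gene above or below both single-positive populations is outside any mixture of them on either scale. The log2 midpoint is the one used unless the linear one is named, and the linear value is added for genes called on the log2 scale only and for lists whose median changes sign.

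The promoters below are shown because they belong to Creb5, whose reporter defines the sort, and to Rcan1 and Fbp2, both higher there than in either single-positive population, and because they hold letters that bZIP factors are known to bind. They were chosen after their values were seen. Each is the RefSeq window of 300 bases, from 250 before to 50 after a transcription start, on GRCm38.p6, printed 5′ to 3′ along the gene, with every match in capitals. Both strands were searched for TGACGTCA, the cAMP response element, and for TGACTCA and its reverse complement TGAGTCA, which do not overlap the first motif.
Creb5, upstream start, chr6:53287053-53287352, plus strand: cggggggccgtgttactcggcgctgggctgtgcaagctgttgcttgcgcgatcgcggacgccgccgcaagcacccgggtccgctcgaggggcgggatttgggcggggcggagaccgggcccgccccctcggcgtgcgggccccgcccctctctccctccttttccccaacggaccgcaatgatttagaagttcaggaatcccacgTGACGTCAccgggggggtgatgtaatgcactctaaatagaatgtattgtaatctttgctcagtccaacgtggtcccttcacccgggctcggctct
Creb5, downstream start, chr6:53573124-53573423, plus strand: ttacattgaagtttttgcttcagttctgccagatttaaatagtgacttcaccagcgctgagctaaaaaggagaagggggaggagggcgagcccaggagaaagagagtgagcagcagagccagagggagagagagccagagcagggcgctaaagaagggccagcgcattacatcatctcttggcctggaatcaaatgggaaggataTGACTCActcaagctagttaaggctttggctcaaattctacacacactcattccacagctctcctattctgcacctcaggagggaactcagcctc
Rcan1, chr16:92400029-92400328, minus strand: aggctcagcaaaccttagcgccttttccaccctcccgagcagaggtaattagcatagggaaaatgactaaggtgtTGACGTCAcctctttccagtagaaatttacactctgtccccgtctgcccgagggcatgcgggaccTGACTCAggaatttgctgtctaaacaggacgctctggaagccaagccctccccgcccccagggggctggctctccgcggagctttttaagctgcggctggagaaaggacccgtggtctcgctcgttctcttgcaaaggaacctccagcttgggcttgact
Fbp2, chr13:62858351-62858650, minus strand: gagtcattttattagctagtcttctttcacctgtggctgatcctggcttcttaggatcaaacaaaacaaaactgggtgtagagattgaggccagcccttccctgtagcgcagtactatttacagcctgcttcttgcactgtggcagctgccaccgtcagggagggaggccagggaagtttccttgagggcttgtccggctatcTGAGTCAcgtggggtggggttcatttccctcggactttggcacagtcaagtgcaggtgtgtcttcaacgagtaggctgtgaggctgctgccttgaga
The upstream Creb5 window holds TGACGTCA and the downstream one TGACTCA, each at position -45 from the start. The printed Rcan1 window holds both, while its other window, chr16:92466120-92466419, holds neither and is not printed. Fbp2 holds TGAGTCA at position -47. Over all tested genes with a window, TGACGTCA was in 2.80% of 15457 windows and TGACTCA or TGAGTCA in 3.70%. A window was found for 12085 of 17752 tested symbols and for 158 of the 227 genes called above or below the midpoint (69.6%). For genes called above, TGACGTCA was in 5 of 176 windows (2.84%) and TGACTCA or TGAGTCA in 13 (7.39%). For genes called below these were 1 of 43 (2.33%) and 3 (6.98%). The matches are few and the shares were not tested.

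Double-positive cells departed from the log2 midpoint in 227 of 17764 genes (1.28%) at an adjusted p under 0.05, with 180 above (1.01%) and 47 below (0.265%). All 227 had the same sign in the 3 litters, and 221 departed at least 2-fold. Of the 180 above, 150 had a mean above both single-positive means, 24 lay between them nearer to GFP-only cells and 6 nearer to RFP-only cells. Of the 47 below, 41 had a mean below both and 6 lay between, nearer to RFP-only cells. Over all tested genes 24.4% of means were above both and 23.0% below both, and the median departure was 0.00. Against the linear midpoint, tested with 1 departure per litter as the unit, 217 genes were above (1.22%) and 454 below (2.56%). The median linear departure over all genes was -0.10. With the same unit on the log2 scale 526 were above and 221 below, so the balance turned between scales under a like test. Passing on 1 scale and not on the other may come from the test as well as from the scale. Of the 180 genes above the log2 midpoint 116 were also above the linear one, and all 47 below were below on both scales. The shares of all tested genes on each scale are the background for every list count below. Higher or lower expression in a bulk library may come from the number of cells of a type or from RNA per cell, which cannot be told apart here.

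**Figure D1:**
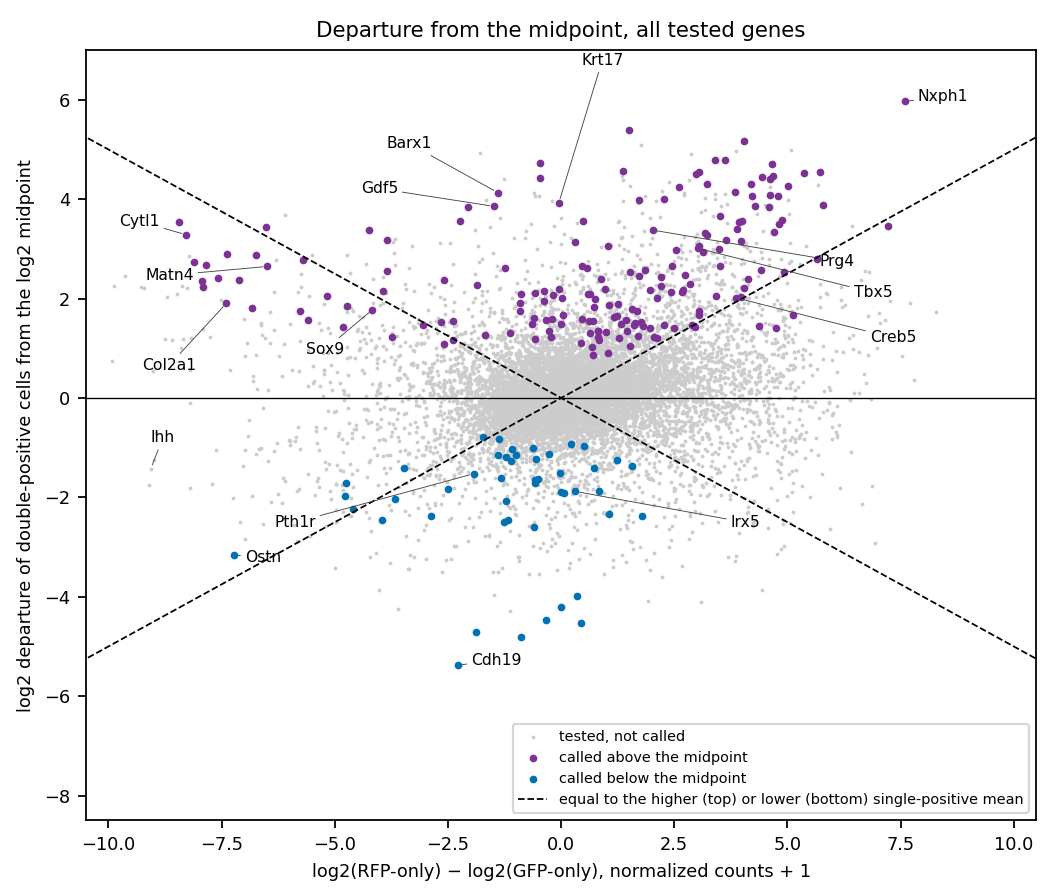
Departure of double-positive cells from the log2 midpoint (vertical, log2) against the difference of RFP-only from GFP-only cells (horizontal, log2), 1 point per tested gene. Points beyond the dashed lines have a mean above or below both single-positive means; 150 of the 180 genes called above and 41 of the 47 called below lie there.

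Calls in this design rest on few libraries. With any 1 of the 9 libraries left out, 29 of the 227 genes were called in every fit, 26 above and 3 below, and the sign stayed the same for all 227. Without double-positive litter 1, 2 or 5 the calls above fell from 180 to 39, 50 or 40, and those below from 47 to 6, 20 or 24. Without RFP-only litter 1, 2 or 5 they were 88, 72 or 95 above and 17, 16 or 16 below. Without GFP-only litter 5 they were 328 and 136, and without GFP-only litter 1 or 2 calls below were 31 or 32. GFP-only litter 5 also stood apart in its summed ribosomal protein genes, 2566000 normalized counts against 680800 to 941100 in the other 8. With litter as a block there were 145 above and 44 below, which included 156 of the 227 genes. With 1 departure per litter as the unit there were 526 and 221.

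The hosts of both reporters were above the log2 midpoint in double-positive cells. Creb5 (ENSMUSG00000053007, chromosome 6, 53287270 to 53700376) had 3408, 2969 and 2754 normalized counts in double-positive litters 1, 2 and 5. It had 3343, 2006 and 3531 in RFP-only and 196, 138 and 274 in GFP-only cells, so the first 2 populations overlapped and GFP-only cells were lower in every litter. Its departure was 2.01 ± 0.26 (adjusted p = 0.00582; here and below ± is the SE of the limma fit over all 9 libraries, whose variance is shared among genes and which does not pair litters), and its difference from RFP-only cells was 0.08 (adjusted p = 0.984). Sox9 (ENSMUSG00000000567, chromosome 11, 112782224 to 112787760) had 29767, 16565 and 24088 in double-positive, 37991, 22771 and 25967 in GFP-only and 1873, 1090 and 1891 in RFP-only cells. Double-positive and GFP-only values of Sox9 overlapped across litters, although within each litter the double-positive library was the lower, and RFP-only values were far below both. The departure of Sox9 was 1.78 ± 0.26 (adjusted p = 0.00977), with 1.82, 1.73 and 1.78 in litters 1, 2 and 5, and from the linear midpoint 0.61 (adjusted p = 0.0967). Its difference from GFP-only cells did not pass (adjusted p = 0.556, and 0.348 with litter as a block). These genes drive the fluorescence that was sorted, so their levels describe the sort. Creb5 was the only 1 of 17 tested CREB and ATF family genes to be called, and the family's median departure was 0.03. The call of Sox9 was lost without double-positive litter 1 or 5 (adjusted p up to 0.0741).

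Genes of the joint interzone and of articular progenitors were called in 1 direction. Of 30 on the list, all tested, 9 were above the midpoint and 21 did not pass, against 1.01% above among all tested genes, and the list's median departure was 1.01 against 0.00. On the linear scale 11 were above, with a median of 0.39. The 9 were Barx1, Gdf5, Prg4, Osr2, Sfrp2, Foxc1, Pthlh, Dkk3 and Creb5, and the first 3, Pthlh and Dkk3 were also above both single-positive populations. Creb5 hosts the red reporter that was sorted, so its call on either scale describes the sort.

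Among secreted signals, Gdf5 (ENSMUSG00000038259, chromosome 2, 155941023 to 155945367), the BMP-family ligand that marks the interzone, was above both single-positive populations. Double-positive litters 1, 2 and 5 had 16771, 8104 and 5235 normalized counts of Gdf5, GFP-only 793, 995 and 1385, and RFP-only 571, 130 and 668. The lowest double-positive value was over 3-fold the highest single-positive one, and among double-positive libraries litter 1 was over 3-fold litter 5. Its departure was 3.86 ± 0.50 (adjusted p = 0.00584), and double-positive cells exceeded GFP-only cells by 3.11 and RFP-only cells by 4.60 on the log2 scale (adjusted p = 0.00908 and 0.00159). Pthlh, which encodes the parathyroid hormone-related protein that restrains chondrocyte maturation, had 1731, 1028 and 1698 in double-positive, 297, 361 and 484 in GFP-only and 255, 302 and 300 in RFP-only cells. Its lowest double-positive value was over 2-fold the highest single-positive one, and its departure was 2.15 ± 0.26 (adjusted p = 0.00535). Sfrp2, a secreted Wnt modulator, had 66456, 59322 and 30709 in double-positive, 26381, 26895 and 30448 in RFP-only and 4929, 4117 and 3929 in GFP-only cells. In litter 5 double-positive and RFP-only values were nearly equal. Its departure was 2.18 ± 0.24 (adjusted p = 0.00321), while the difference from RFP-only cells, 0.83, did not pass (adjusted p = 0.16). Dkk3, a secreted member of the Dickkopf family, had 9760, 8941 and 7819 in double-positive, 2100, 3745 and 1301 in GFP-only and 1777, 1661 and 3532 in RFP-only cells. All double-positive values of Dkk3 were above all 6 others, with a departure of 2.01 ± 0.33 (adjusted p = 0.0187). Its call was lost without any 1 of the 3 double-positive libraries (adjusted p up to 0.105).

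Prg4 (ENSMUSG00000006014, chromosome 1, 150449412 to 150466165), which encodes lubricin, had 453, 635 and 379 normalized counts in double-positive, 60.9, 99.7 and 127 in RFP-only and 18.2, 38 and 14.9 in GFP-only cells. The 3 groups did not overlap, and double-positive cells were the highest in every litter. The departure of Prg4 was 3.38 ± 0.41 (adjusted p = 0.00535) from the log2 and 3.02 from the linear midpoint (adjusted p = 0.0031). Double-positive cells exceeded RFP-only cells by 2.37 (adjusted p = 0.0236). Prg4 was 1 of 14 tested lubrication and hyaluronan genes and the only one called on the log2 scale, where the list's median was 0.12. On the linear scale it was the 1 above and 2 were below, with a median of -0.15.

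Transcription factors of the interzone list behaved in 2 ways. Barx1 (ENSMUSG00000021381, chromosome 13, 48662998 to 48666507), a homeobox factor of joint and stomach mesenchyme, was far above both populations, with 4797, 2327 and 3108 in double-positive, 309, 246 and 358 in GFP-only and 117, 78.1 and 160 in RFP-only cells. Its departure of 4.13 ± 0.30 had the smallest adjusted p of all genes tested, 0.000349, together with Nxph1. Osr2, an odd-skipped factor of joint-forming mesenchyme, had 9635, 6978 and 5582 in double-positive, 5437, 5980 and 5894 in RFP-only and 177, 431 and 467 in GFP-only cells, so double-positive and RFP-only values overlapped. The departure of Osr2 was 2.39 ± 0.30 (adjusted p = 0.00535). Foxc1, a forkhead factor of skeletal mesenchyme, overlapped GFP-only cells instead, with 7286, 4767 and 7767 in double-positive, 8349, 4761 and 4613 in GFP-only and 261, 266 and 741 in RFP-only cells. Its departure was 2.15 ± 0.35 (adjusted p = 0.0187), lost without double-positive litter 1 or 5 (adjusted p up to 0.105). Osr2, Foxc1 and Pthlh were named after their values were seen.

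Other interzone genes did not pass. Erg, an ETS factor of the interzone, had a departure of 0.65 ± 0.34 (adjusted p = 0.536), with 489, 250 and 464 in double-positive and 534, 440 and 486 in GFP-only cells. Wnt9a, a ligand used to define the interzone, had 321, 511 and 350 in double-positive and 1176, 1024 and 1222 in RFP-only cells, while GFP-only values spread from 29.8 to 747. Its departure was -0.17 ± 0.73 (adjusted p = 0.96). Wnt4, another interzone Wnt ligand, had a departure of -0.71 ± 0.32 (adjusted p = 0.443), and Lgr5, an R-spondin receptor of joint progenitors, had 1.38 ± 0.33 (adjusted p = 0.0743).

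**Figure D2:**
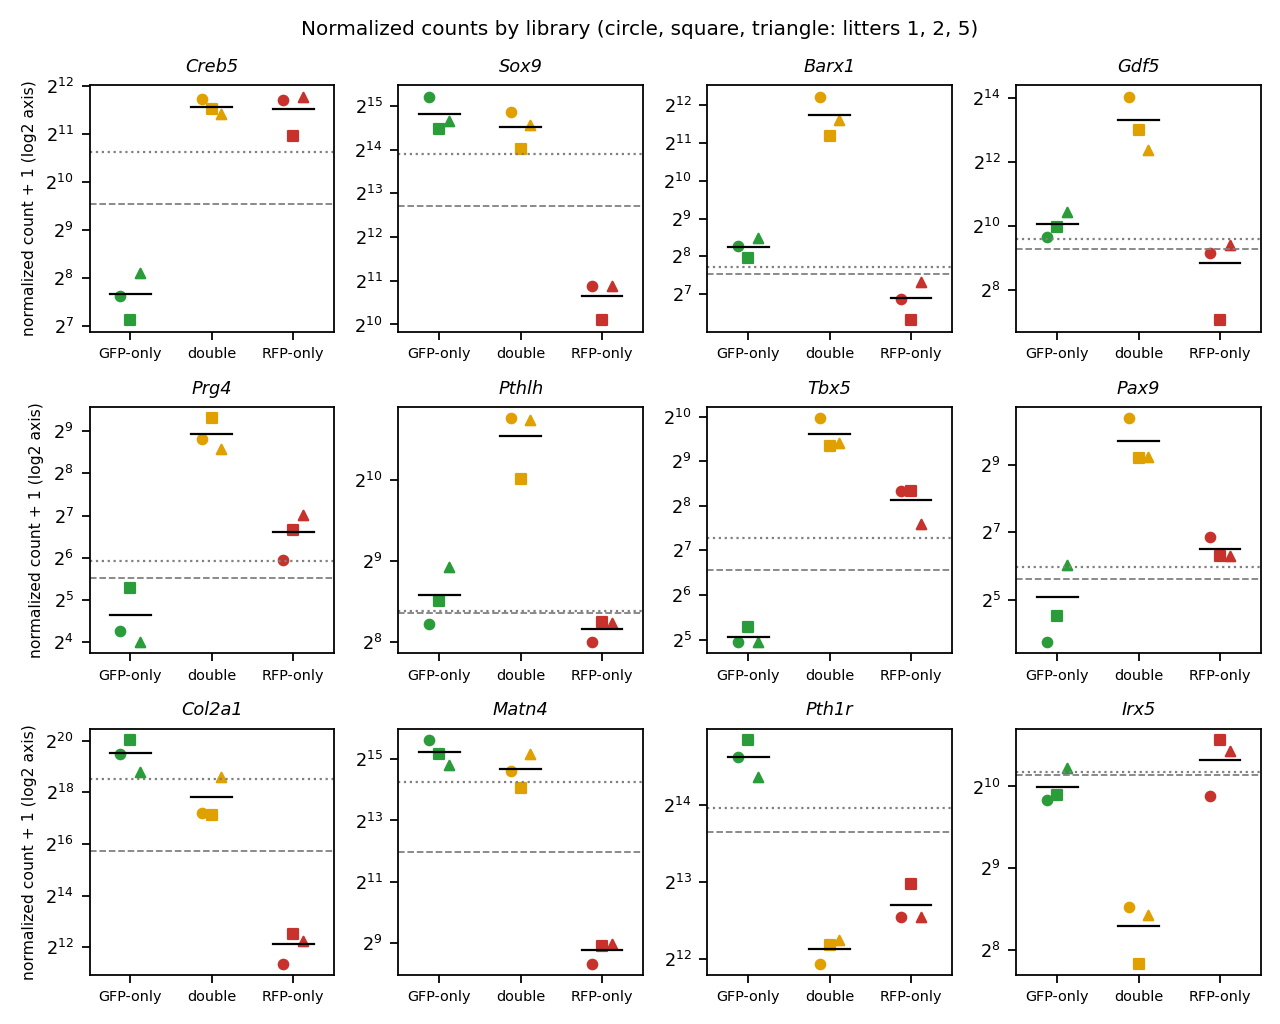
Normalized counts plus 1 on a log2 axis in each library for 12 named genes, with a bar at each population's mean; dashed lines are log2 midpoints and dotted lines linear midpoints. Barx1, Gdf5, Prg4, Pthlh, Tbx5 and Pax9 in double-positive cells lie above all 6 other libraries, Pth1r and Irx5 below all 6, and Col2a1 between the log2 and the linear midpoint in litters 1 and 2.

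Higher than both single-positive populations, by both comparisons with adjusted p under 0.05, were 42 genes (0.236%), and lower than both were 11 (0.0619%). The comparisons share the double-positive libraries. Of these, 41 and 11 were also called against the midpoint. By value alone, with no test, 1041 genes (5.86%) were above both in every litter and 709 (3.99%) below both. Without overlap, all 3 double-positive values exceeded all 6 others in 447 tested genes (2.52%), 99 of them called above, and were under all 6 in 217 (1.22%), 30 of them called below. Besides Barx1 and Gdf5, the genes farthest above both were Krt17, Pax9, Cer1, Ano5, Fbp2 and Cyp26a1. Krt17, a keratin, had 721, 429 and 653 in double-positive, 35.5, 52.6 and 29.8 in GFP-only and 21.3, 40.8 and 57.4 in RFP-only cells. The singles of Krt17 were alike and the double-positive values far from both, with a departure of 3.93 ± 0.41 (adjusted p = 0.00229). Ano5, a membrane protein of the anoctamin family, had 279, 341 and 111 in double-positive and 32.8, 21.5 and 19.6 in RFP-only cells. In GFP-only cells Ano5 was at 0, 2.45 and 0, and its departure was 5.17 ± 0.64 (adjusted p = 0.00535). Cer1, a secreted antagonist of Nodal and BMP, had 474, 148 and 86.0 in double-positive, 9.09, 7.35 and 25.8 in GFP-only and 17.5, 19.3 and 15.4 in RFP-only cells. Its departure was 3.56 ± 0.62 (adjusted p = 0.0238). Fbp2, a fructose bisphosphatase of gluconeogenesis, had 601, 231 and 330 in double-positive, 35.5, 78.4 and 44.8 in GFP-only and 23.6, 6.79 and 8.40 in RFP-only cells. The departure of Fbp2 was 3.85 ± 0.51 (adjusted p = 0.00621). Rcan1, a regulator of calcineurin named after its values were seen, had 4666, 4087 and 4809 in double-positive, 1346, 1387 and 1114 in GFP-only and 2484, 2218 and 2912 in RFP-only cells. Its departure was smaller, 1.33 ± 0.17 (adjusted p = 0.00582).

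Against the midpoint, Krt17, Pax9, Ano5 and Rcan1 were called in all 9 fits that leave out a library. Fbp2 was lost without double-positive litter 1 (adjusted p = 0.057). Cer1 was called only in the fits without any 1 GFP-only library or without double-positive litter 5, with an adjusted p of up to 0.121 in the others. Over the same 9 fits 8 to 71 genes were called above both populations, against 42 with all libraries. Above the midpoint it was 39 to 328, against 180. With all libraries, Ano5 and Rcan1 differed from RFP-only cells close to the threshold (adjusted p = 0.0486 and 0.0499, and 0.0482 and 0.0762 with litter as a block).

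**Figure D3:**
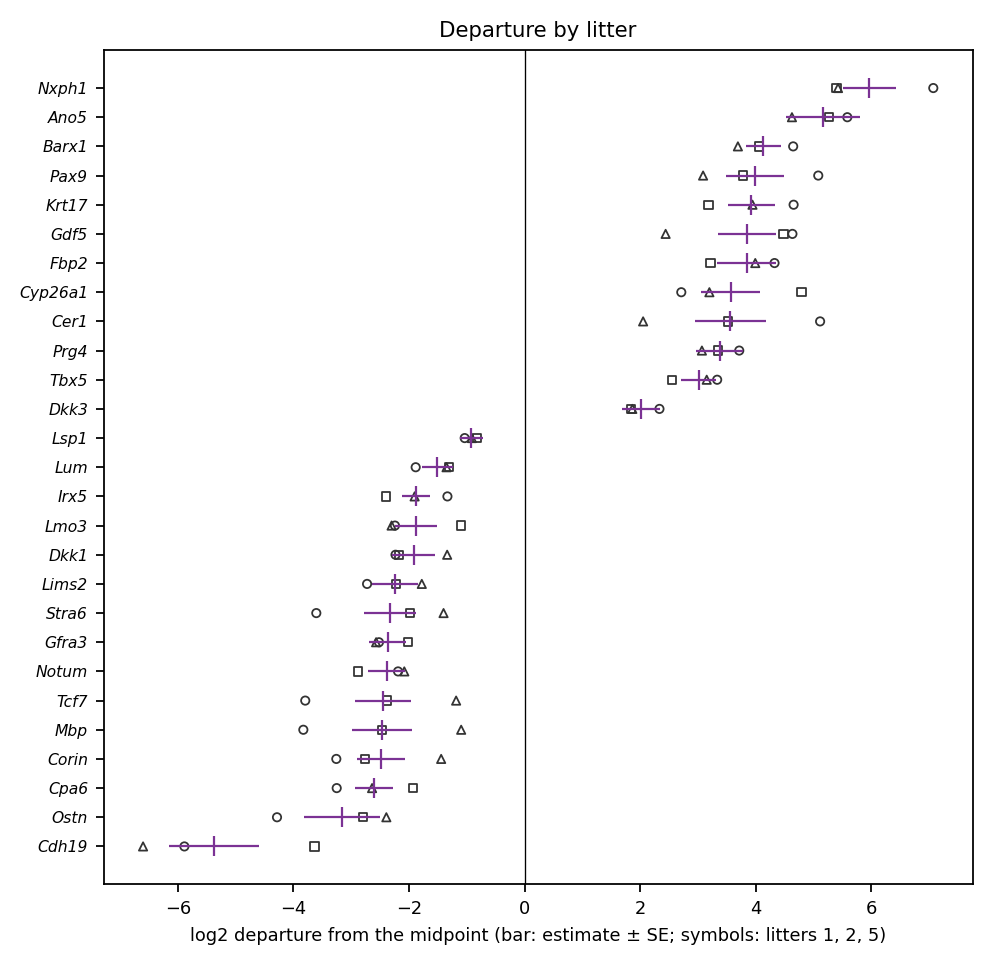
Departure from the log2 midpoint (horizontal, log2) for 27 named genes, 12 called above and 15 below, with the estimate and its SE as a bar and litters 1, 2 and 5 as circle, square and triangle. All 3 litters of each gene lie on the same side of 0, and the distance between litters differs from gene to gene, as in Tcf7 and Cer1 against Dkk3 and Lsp1.

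Limb patterning factors were called in both directions, 6 of 37 tested above and 1 below, while 30 did not pass, against 1.01% above and 0.265% below among all tested genes, with a median departure of 0.52 on the log2 scale and 0.33 on the linear. Pax9, a paired-box factor of skeletal mesenchyme, had 1342, 585 and 605 in double-positive, 116, 77.0 and 77.0 in RFP-only and 12.4, 22 and 63.8 in GFP-only cells. Its departure was 3.99 ± 0.50 (adjusted p = 0.00535), and it was above both singles in every litter. Tbx5, a T-box factor best known in the forelimb, had 1003, 653 and 686 in double-positive, 321, 320 and 192 in RFP-only and 29.8, 38 and 29.8 in GFP-only cells, in 3 groups without overlap. Its departure was 3.01 ± 0.30 (adjusted p = 0.00229). Tbx4, its hindlimb counterpart, had 6445, 4593 and 4873 in double-positive, 2008, 1907 and 707 in GFP-only and 2786, 1789 and 2367 in RFP-only cells. Its departure was 1.56 ± 0.32 (adjusted p = 0.0423). Hoxd9 and Hoxd10, posterior Hox genes that pattern the limb, had departures of 1.66 ± 0.33 and 1.74 ± 0.30 (adjusted p = 0.0362 and 0.0216). Tbx18, a T-box factor of limb mesenchyme, had 4945, 5004 and 3223 in double-positive and 3558, 2958 and 3787 in RFP-only cells, which overlapped, against 732, 831 and 578 in GFP-only cells. Its departure was 1.47 ± 0.21 (adjusted p = 0.00927). Tbx4, Hoxd9 and Hoxd10 were named after their values were seen. Tbx4 and Hoxd9 were called only in the 3 fits without a GFP-only library (adjusted p up to 0.208 and 0.193 in the others). Hoxd10 was also called without RFP-only litter 1 (up to 0.115 in the others), and Tbx18 was lost without double-positive litter 1 or 2 (up to 0.0713). Of the named factors Pax9 and Tbx5 were called in all 9 fits.

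Cartilage genes gave opposite readings on the 2 scales. Of 31 early cartilage matrix and chondrocyte genes, 14 were above the log2 midpoint and 17 did not pass, with a median departure of 1.85. Among all tested genes 1.01% were above. Against the linear midpoint 9 were below and none above, with a median of -0.73, where 2.56% of all tested genes were below and 1.22% above. All 31 were at least 4-fold higher in GFP-only than in RFP-only cells, and none was above or below both means in double-positive cells. Measured as a position, with RFP-only cells at 0% and GFP-only cells at 100%, the median cartilage gene stood at 76.1% on the log2 scale and at 30.1% on the linear scale. By litter the linear median was 24.3%, 19.3% and 47.7% in litters 1, 2 and 5. The summed cartilage list was 575400, 512100 and 1339000 normalized counts in double-positive, 2163000 to 2876000 in GFP-only and 14700 to 26700 in RFP-only cells.

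Col2a1 (ENSMUSG00000022483, chromosome 15, 97975602 to 98004695), the main cartilage collagen, had 152100, 143510 and 394730 normalized counts in double-positive, 737690, 1074900 and 453530 in GFP-only and 2652, 5859 and 4837 in RFP-only cells. The groups did not overlap, and double-positive cells were between the others in each litter. Its departure from the log2 midpoint was 1.90 ± 0.39 (adjusted p = 0.0405) and from the linear midpoint -0.80 (adjusted p = 0.384). With litter as a block the log2 departure of Col2a1 did not pass (adjusted p = 0.0581), and of the 9 fits without a library it passed only in those without GFP-only litter 2 or 5 (adjusted p up to 0.158 in the others). Matn4, a matrilin of the cartilage matrix, was closer to GFP-only cells, with 25005, 17116 and 36713 against 51174, 37256 and 28624 in GFP-only and 317, 478 and 491 in RFP-only cells. In litter 5 it exceeded the GFP-only value. Its departure was 2.65 ± 0.27 (adjusted p = 0.00229) on the log2 and 0.38 (adjusted p = 0.532) on the linear scale.

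The Sox9 partners Sox5 and Sox6 and the ubiquitin ligase Wwp2, a gene known to be induced by Sox9, were far above RFP-only levels. Sox5 had 3487, 2005 and 4373 in double-positive, 5580, 3552 and 4754 in GFP-only and 126, 102 and 154 in RFP-only cells, with a departure of 2.04 ± 0.27 (adjusted p = 0.00621). Sox6, named after its values were seen, had 5474, 3093 and 4204 in double-positive, 4783, 2936 and 5815 in GFP-only and 38.1, 41.9 and 344 in RFP-only cells, with a departure of 2.79 ± 0.59 (adjusted p = 0.0489). Wwp2 had 29069, 17010 and 34590 in double-positive, 36993, 32307 and 41992 in GFP-only and 1263, 1342 and 1599 in RFP-only cells, with a departure of 1.84 ± 0.23 (adjusted p = 0.00535). Differences from GFP-only cells were -0.54, -0.07 and -0.52 for Sox5, Sox6 and Wwp2, and none passed (adjusted p = 0.308, 0.965 and 0.244, and 0.185, 0.956 and 0.176 with litter as a block), although Sox5 and Wwp2 were lower than in GFP-only cells in each of the 3 litters. Their departures from the linear midpoint were 0.42, 0.90 and 0.43 and did not pass (adjusted p = 0.358, 0.051 and 0.313). Matn4 and Wwp2 were called in all 9 fits. Sox5 was lost without double-positive litter 1 (adjusted p = 0.0527), and Sox6 was called only without GFP-only or RFP-only litter 5 (up to 0.214 in the others).

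Comp, Snorc and Pcolce2 were nearer to RFP-only levels on the linear scale than Col2a1, at 8.34%, 4.81% and 4.98% of the way to GFP-only cells against 30.1%, while Acan and Cnmd stood at 28.8% and 29.5%. Comp, a pentameric matrix protein, had 2061, 3200 and 14390 in double-positive against 45381, 76060 and 107100 in GFP-only and 29.7, 400 and 213 in RFP-only cells. Its departure was 0.54 ± 0.76 from the log2 midpoint (adjusted p = 0.855) and -2.98 from the linear one (adjusted p = 0.00111). Snorc, a chondrocyte proteoglycan, had 402, 583 and 1595 in double-positive and 7191, 9498 and 35630 in GFP-only cells, with departures of 0.74 ± 0.74 (adjusted p = 0.783) and -3.22 (adjusted p = 0.000317). Pcolce2, an enhancer of procollagen processing, had 614, 760 and 1818 in double-positive and 9490, 13861 and 29160 in GFP-only cells, with departures of -0.90 ± 0.39 (adjusted p = 0.409) and -3.07 (adjusted p = 0.000164). Acan, which encodes aggrecan, the main cartilage proteoglycan, had 8624, 10058 and 25529 in double-positive and 39917, 58060 and 54128 in GFP-only cells, and passed on neither scale (2.25 ± 0.59, adjusted p = 0.11, and -0.95, adjusted p = 0.0858). Comp, Snorc, Pcolce2 and Acan were named after their values were seen. Cnmd, which encodes the antiangiogenic factor chondromodulin, was the 1 gene called above the log2 midpoint (1.80 ± 0.37, adjusted p = 0.0423) whose linear departure was negative in every litter (-0.06, -0.83 and -0.98). Its call was present in only 1 of the 9 fits, that without GFP-only litter 5 (adjusted p up to 0.182 in the others).

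Genes of maturing chondrocytes and of bone had negative departures in litters 1 and 2. Of 21 tested genes of the prehypertrophic, hypertrophic and osteoblast list, 3 were below the log2 midpoint and 18 did not pass, against 0.265% below among all genes. The median of the 21 was -1.24, with -1.61, -1.99 and 0.11 in litters 1, 2 and 5, and none had a positive departure averaged over litters, and on the linear scale 15 were below, with a median of -2.47. Of the list 17 genes were at least 4-fold higher in GFP-only than RFP-only cells, and their median position was 3.68% of the way to GFP-only cells on the linear scale (1.84%, 0.91% and 12.8% in litters 1, 2 and 5), against 30.1% for the cartilage genes. Over all 622 genes of this kind it was 23.6%. Pth1r (ENSMUSG00000032492, chromosome 9, 110722085 to 110747145), the receptor of Pthlh, had 3916, 4650 and 4837 in double-positive, 25171, 29338 and 20946 in GFP-only and 5944, 7985 and 5960 in RFP-only cells. Every double-positive value was under all 6 others, and its departure was -1.52 ± 0.18 (adjusted p = 0.00535), called in all 9 fits. The difference of Pth1r from RFP-only cells, -0.56, did not pass (adjusted p = 0.227). It was 0.194 with litter as a block and 0.0325 with 1 difference per litter as the unit. Runx2, the master factor of osteoblasts and chondrocyte hypertrophy, had 638, 334 and 383 in double-positive and 302, 276 and 503 in RFP-only cells, which overlapped, against 4662, 3580 and 3437 in GFP-only cells. Its departure was -1.42 ± 0.28 (adjusted p = 0.0353). Ostn, a secreted peptide of bone, had 3.84, 25.7 and 24.7 in double-positive, 3.81, 23.8 and 9.80 in RFP-only and 1853, 1401 and 1681 in GFP-only cells, with a departure of -3.16 ± 0.65 (adjusted p = 0.0433). Each of the calls of Runx2 and Ostn was present in 1 of the 9 fits, without GFP-only litter 5 and without RFP-only litter 1, with an adjusted p of up to 0.168 and 0.163 in the others.

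Ihh (ENSMUSG00000006538, chromosome 1, 74945315 to 74951672), the hedgehog ligand of prehypertrophic chondrocytes, had 121, 153 and 558 in double-positive, 16693, 12533 and 12237 in GFP-only and 15.2, 45.3 and 21 in RFP-only cells. The 3 groups did not overlap, and the double-positive level was 1.81% of the way to GFP-only cells on the linear scale. From the linear midpoint Ihh departed by -4.97 (adjusted p = 0.000716), and from the log2 midpoint by -1.43 ± 0.47 (adjusted p = 0.229). Col10a1, the collagen of hypertrophic cartilage, named after its values were seen, had 56.7, 673 and 5035 in double-positive and 10049, 72495 and 58216 in GFP-only cells. Its departures were -4.91 on the linear scale (adjusted p = 0.00259) and -1.81 ± 1.27 on the log2 scale (adjusted p = 0.687), and litter 5 was the highest double-positive library for both Ihh and Col10a1. In that litter their log2 departures were 0.11 and 0.46, against -2.09 and -2.31 for Ihh and -2.99 and -2.92 for Col10a1 in litters 1 and 2.

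**Figure D4:**
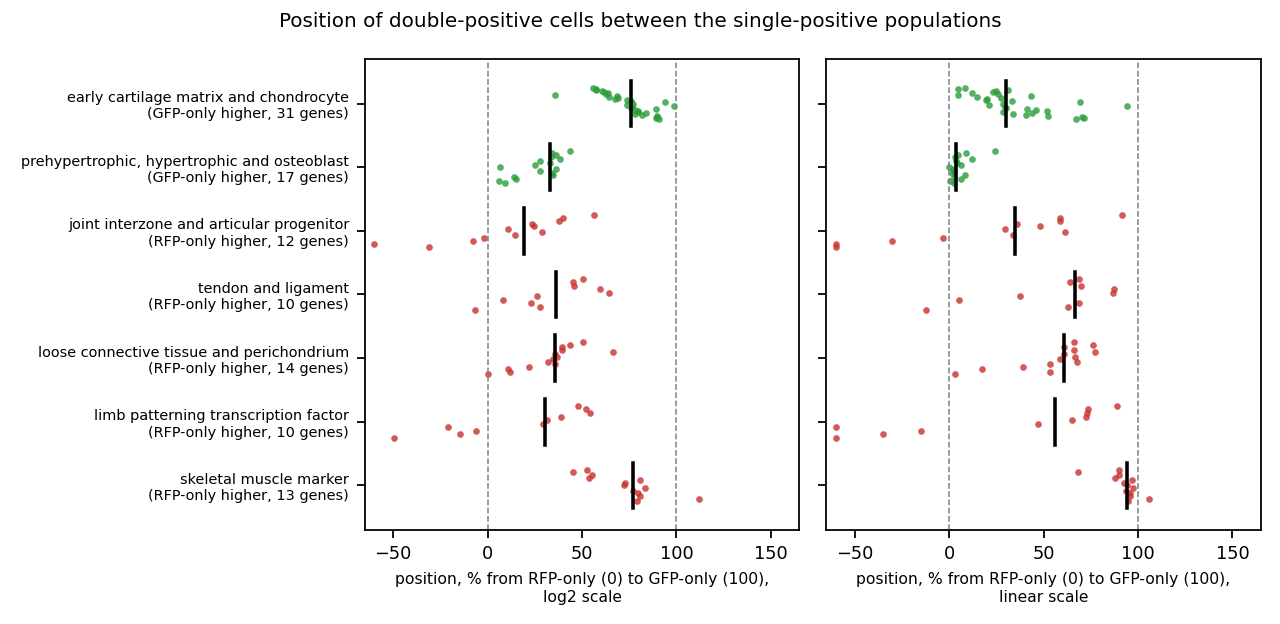
Position of double-positive cells between RFP-only (0%) and GFP-only cells (100%) on the log2 (left) and linear scale (right), 1 point per gene of a list with at least a 4-fold difference, and a bar at the median; values beyond -60% or 160% are drawn there. On the linear scale prehypertrophic genes crowd near RFP-only cells (median 3.68%) and muscle genes near GFP-only cells (median 94.2%).

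Lower than both single-positive populations in double-positive cells, and named by the rule, were Cpa6, Irx5, Gfra3, Cdh19, Lum, Dkk1, Lmo3 and Lsp1. Irx5 (ENSMUSG00000031737, chromosome 8, 92357625 to 92376286), an Iroquois homeobox factor of limb patterning, had 367, 227 and 344 in double-positive, 913, 950 and 1201 in GFP-only and 942, 1521 and 1383 in RFP-only cells. The singles overlapped and all double-positive values were lower, with a departure of -1.88 ± 0.25 (adjusted p = 0.00584). Cpa6, a secreted carboxypeptidase, had 38.4, 105 and 65.8 in double-positive, 416, 479 and 586 in GFP-only and 337, 340 and 294 in RFP-only cells. The departure of Cpa6 was -2.61 ± 0.33 (adjusted p = 0.00559). Lum, which encodes the proteoglycan lumican of connective tissue, had 8560, 19154 and 15463 in double-positive, 28733, 46422 and 44951 in GFP-only and 34768, 48383 and 34567 in RFP-only cells. Its departure was -1.51 ± 0.27 (adjusted p = 0.0253). Lum was the 1 of 28 tested loose connective tissue and perichondrium genes to be called, and that list's median departure was 0.32, with -0.03, 0.44 and 0.44 in litters 1, 2 and 5. On the linear scale 3 of the list were below and none above, with a median of -0.35 and 8 positive.

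Cdh19, a cadherin of Schwann cell precursors, had 2.88, 15.6 and 0 in double-positive, 558, 507 and 174 in GFP-only and 93.7, 82.7 and 53.2 in RFP-only cells, with a departure of -5.38 ± 0.77 (adjusted p = 0.00927). Mbp, the myelin basic protein gene, had 27.9, 81.9 and 234 in double-positive, 1395, 2069 and 1989 in GFP-only and 120, 99.7 and 126 in RFP-only cells, with a departure of -2.46 ± 0.52 (adjusted p = 0.0484). Gfra3, a receptor of the glial factor artemin, had 82.6, 123 and 85.2 in double-positive, 181, 271 and 393 in GFP-only and 1264, 931 and 664 in RFP-only cells. Its departure was -2.37 ± 0.32 (adjusted p = 0.00718). Cdh19 and Mbp are on the list of Schwann cell and neuron markers, of which 15 were tested, 2 were below, 1 above and 12 did not pass. The 1 above was Nefl, a neurofilament gene, with 1169, 3191 and 1708 in double-positive, 3150, 3406 and 3794 in RFP-only and 102, 103 and 89.5 in GFP-only cells, a departure of 1.67 ± 0.28 (adjusted p = 0.0216) that was 0.07 from the linear midpoint (adjusted p = 0.934). The median of the list was -0.47, and against the linear midpoint 6 were below and none above, with a median of -1.31. Over all tested genes 0.265% were below and 1.01% above the log2 midpoint, and 2.56% were below the linear one. The summed list was 3711 to 6333 in double-positive, 8173 to 13960 in GFP-only and 6621 to 7963 in RFP-only cells, without overlap, and the part of such cells in these departures was not tested.

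Irx5 and Cpa6 were called in all 9 fits, and Cdh19 and Gfra3 in all but that without double-positive litter 1 (adjusted p = 0.0537 and 0.0527). Lum was called only without any 1 GFP-only library or double-positive litter 2 (up to 0.111 in the others), Mbp only without double-positive litter 5 (up to 0.166), and Nefl was lost without double-positive litter 2 or 5 or RFP-only litter 1 or 2 (up to 0.0784). Lmo3, a LIM-only factor, departed by -1.88 ± 0.37 (adjusted p = 0.0353, and 0.0532 with litter as a block) and Lsp1, an actin-binding protein of leukocytes, by -0.92 ± 0.20 (adjusted p = 0.0489). Lsp1 was called only without GFP-only litter 5 (up to 0.244), and Lmo3 only without GFP-only litter 1 or 5 or double-positive litter 2 (up to 0.169). The difference of Lsp1 from GFP-only cells was close to the threshold (adjusted p = 0.0497, and 0.0328 with litter as a block). With 1 difference per litter as the unit, Lsp1, Lmo3 and Gfra3 did not pass against GFP-only cells (adjusted p = 0.147, 0.0618 and 0.074).

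Wnt pathway genes were called in both directions. Of 46 tested, 4 were above the midpoint, 4 below and 38 did not pass, and the median departure was -0.05, against 1.01% above and 0.265% below among all tested genes. The linear midpoint gave 3 above and 12 below, with a median of -0.30. On the recovered reads edgeR called 4 above and 1 below and DESeq2 6 above and 6 below. Above were the secreted modulators Sfrp2, Dkk3 and Frzb (1.17 ± 0.23, adjusted p = 0.0362, and 0.052 with litter as a block; 0.72 from the linear midpoint, adjusted p = 0.0984) and the receptor Fzd9, and below were the antagonists Notum and Dkk1, the ligand Wnt5a and the nuclear effector Tcf7. Notum, a lipase that inactivates Wnt ligands, had 116, 133 and 187 in double-positive, 1615, 2125 and 2419 in GFP-only and 176, 456 and 260 in RFP-only cells, with a departure of -2.39 ± 0.32 (adjusted p = 0.00621). Double-positive values of Notum were the lowest of each litter, although litter 5 overlapped RFP-only litter 1. Dkk1, a blocker of the Wnt co-receptors, had 62.5, 96.7 and 186 in double-positive, 336, 422 and 411 in GFP-only and 264, 460 and 543 in RFP-only cells, with a departure of -1.92 ± 0.37 (adjusted p = 0.0345). Wnt5a, a ligand of limb outgrowth named after its values were seen, had 1630, 3407 and 2026 in double-positive, 7718, 7233 and 8037 in RFP-only and 5242, 6160 and 3040 in GFP-only cells, with a departure of -1.41 ± 0.27 (adjusted p = 0.0333). Tcf7, a transcription factor of the pathway, had 42.3, 143 and 137 in double-positive, 995, 1391 and 345 in GFP-only and 362, 404 and 283 in RFP-only cells, with a departure of -2.45 ± 0.49 (adjusted p = 0.0376). All double-positive values of Dkk1 and Tcf7 were under all 6 others, and Wnt5a in double-positive litter 2 overlapped GFP-only litter 5. Differences from RFP-only cells did not pass for Tcf7 (-1.87, adjusted p = 0.124) or Notum (-0.95, adjusted p = 0.258). These were 0.114 and 0.175 with litter as a block, and 0.0385 and 0.104 with 1 difference per litter as the unit. Fzd9, a Wnt receptor, had 3023, 2125 and 4012 in double-positive, 8326, 5639 and 5757 in GFP-only and 74.7, 101 and 220 in RFP-only cells. It was above on the log2 scale (1.75 ± 0.33, adjusted p = 0.0324) and at -0.16 on the linear one (adjusted p = 0.777). Sfrp2 was called in all 9 fits and Notum in all but that without double-positive litter 1 (adjusted p = 0.051). Tcf7 was called only without GFP-only litter 5 (up to 0.17), Wnt5a without GFP-only litter 5 or double-positive litter 2 (up to 0.179), Dkk1 without GFP-only or double-positive litter 5 or RFP-only litter 1 (up to 0.163), Fzd9 without GFP-only litter 1 or 5 or RFP-only litter 5 (up to 0.152), and Frzb without GFP-only litter 5 or RFP-only litter 1 (up to 0.161).

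In the BMP and GDF pathway 3 of 31 tested genes were above, 1 below and 27 did not pass, with a median of -0.03. Among all tested genes 1.01% were above and 0.265% below. Besides Gdf5, the genes above were Gdf10, a ligand of the family, and Grem1, a secreted BMP antagonist. Gdf10 had 13064, 10973 and 17010 in double-positive, 11537, 7422 and 5989 in GFP-only and 3144, 4086 and 3801 in RFP-only cells, the highest in each litter, with a departure of 1.32 ± 0.23 (adjusted p = 0.0238). The difference of Gdf10 from GFP-only cells, 0.75, did not pass (adjusted p = 0.108). Grem1 had 1031, 1062 and 1140 in double-positive and 1110, 1136 and 930 in RFP-only cells, against 193, 73.5 and 199 in GFP-only cells, with a departure of 1.47 ± 0.31 (adjusted p = 0.0489, and 0.0633 with litter as a block) and a linear departure of 0.83 (adjusted p = 0.0733). The gene below was Bmp7, a ligand, with 1116, 991 and 1377 in double-positive, 4966, 4169 and 3110 in GFP-only and 1882, 1537 and 1802 in RFP-only cells, all double-positive values being the lower. Its departure was -1.20 ± 0.20 (adjusted p = 0.0216). The difference of Bmp7 from RFP-only cells, -0.59, did not pass (adjusted p = 0.269). It was 0.291 with litter as a block and 0.0347 with 1 difference per litter as the unit. Gdf10 and Grem1 were called only in the 3 fits without a GFP-only library (up to 0.121 and 0.183 in the others), and Bmp7 also without RFP-only litter 2 (up to 0.108).

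Of 23 tested TGF-beta and activin genes 3 were above, against 1.01% of all tested genes, and 20 did not pass. The list's median was 0.21. Inhba, which encodes the activin A subunit, had 1774, 1021 and 1596 in double-positive, 832, 1059 and 1037 in RFP-only and 261, 334 and 242 in GFP-only cells, with a departure of 1.46 ± 0.24 (adjusted p = 0.0187). Tgfbi, a secreted matrix protein induced by TGF-beta, had 35324, 22872 and 23512 in double-positive, 11495, 15002 and 17182 in GFP-only and 10539, 8154 and 10361 in RFP-only cells. It was above both singles, with a departure of 1.18 ± 0.20 (adjusted p = 0.0238). Ltbp3, which binds latent TGF-beta, departed by 1.23 ± 0.25 (adjusted p = 0.0387). Inhba was lost without double-positive litter 1 or 5 or RFP-only litter 1 (up to 0.11), Tgfbi was called only in the 3 fits without a GFP-only library (up to 0.118), and Ltbp3 only without GFP-only litter 2 or 5 (up to 0.176).

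Hedgehog pathway genes had a median departure of 0.47, with 2 of 13 above, against 1.01% of all tested genes, and 11 not passing. Both were co-receptors. Gas1 had 40424, 37740 and 24161 in double-positive, 34122, 31867 and 30674 in RFP-only and 2477, 2447 and 1446 in GFP-only cells, with a departure of 2.03 ± 0.23 (adjusted p = 0.00364). Cdon had 2475, 2036 and 2472 in double-positive, 2417, 1961 and 2948 in RFP-only and 404, 275 and 265 in GFP-only cells, with a departure of 1.42 ± 0.22 (adjusted p = 0.0128), lost without double-positive litter 1 or 5 (up to 0.0877) and against the linear midpoint (0.77, adjusted p = 0.0575). Double-positive and RFP-only values overlapped for both. In the FGF pathway 1 of 18 was called, Fgfrl1, a receptor that lacks the kinase domain (1.09 ± 0.23, adjusted p = 0.0463, and 0.0682 with litter as a block; 0.56 from the linear midpoint, adjusted p = 0.261), with calls in the fits without GFP-only litter 1 or 5 alone (up to 0.213 in the others). The FGF list's median was 0.29 on the log2 and -0.16 on the linear scale. Its 1 call stands beside 1.28% called in either direction among all tested genes. Of 16 Notch pathway genes 0 passed in limma, with 4 at an unadjusted p under 0.05, edgeR called 0 and DESeq2 called 1, and the median departure was -0.36.

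Retinoic acid genes were called in opposite directions, 1 of 17 above and 1 below, with a median of 0.03 on the log2 and -0.26 on the linear scale. Over all tested genes the shares were 1.01% above and 0.265% below. Cyp26a1, the enzyme that degrades retinoic acid, had 893, 1461 and 1797 in double-positive, 257, 144 and 380 in GFP-only and 70.8, 18.1 and 99.4 in RFP-only cells. It was above both singles in every litter, with a departure of 3.57 ± 0.51 (adjusted p = 0.00927). Stra6, the membrane receptor for retinol uptake, had 143, 335 and 230 in double-positive, 2004, 1781 and 1187 in RFP-only and 1533, 984 and 313 in GFP-only cells, with a departure of -2.33 ± 0.45 (adjusted p = 0.0353). Double-positive litter 2 overlapped GFP-only litter 5 for Stra6. Cyp26a1 was lost without double-positive litter 2 or 5 (up to 0.0576), and Stra6 was called only without GFP-only litter 1 or 5 (up to 0.183).

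Among tendon and ligament genes 3 of 24 were above, against 1.01% of all tested genes, and 21 did not pass, with a median of 0.28. On the linear scale 2 were above and 4 below, against 1.22% and 2.56% of all tested genes, with a median of -0.03. Fmod, the proteoglycan fibromodulin, had 9890, 12199 and 17989 in double-positive, 3261, 8562 and 5173 in GFP-only and 1881, 3053 and 3872 in RFP-only cells, so every double-positive value was the higher. Its departure was 1.75 ± 0.32 (adjusted p = 0.0294). The difference of Fmod from GFP-only cells, 1.30, did not pass (adjusted p = 0.0561). It was 0.0189 with litter as a block and 0.0579 with 1 difference per litter as the unit. Mkx, a homeobox factor of tendon, had 2100, 2138 and 1480 in double-positive, 1367, 984 and 1506 in RFP-only and 547, 705 and 361 in GFP-only cells, with a departure of 1.21 ± 0.26 (adjusted p = 0.0489, and 0.0665 with litter as a block). The 10 tendon genes whose RFP-only level was at least 4-fold the GFP-only level stood at a median of 66.4% of the way to GFP-only cells on the linear scale, and the 14 of loose connective tissue at 60.8%, near the 61.7% of all 1253 such genes. Fmod was lost without any 1 double-positive library or RFP-only litter 1 or 2 (up to 0.141), and Mkx was called only without GFP-only litter 2 or 5 (up to 0.218).

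Skeletal muscle markers, high in RFP-only cells, were close to GFP-only levels. The summed list was 1459 to 4170 normalized counts in double-positive, 1185 to 3275 in GFP-only and 10160 to 37430 in RFP-only cells. Of 20 tested, 0 were called against the log2 midpoint in limma, edgeR or DESeq2, with 6 at an unadjusted p under 0.05, all below, and a median departure of -0.87. Against the linear midpoint 10 were below. The 13 muscle genes at least 4-fold higher in RFP-only cells stood at a median of 94.2% of the way to GFP-only cells on the linear scale, with 95.5%, 93.8% and 94.8% in litters 1, 2 and 5. Myod1, a determination factor of myoblasts, had 33.6, 154 and 198 in double-positive, 494, 2592 and 1744 in RFP-only and 38.9, 29.4 and 44.8 in GFP-only cells. Its linear departure was -2.73 (adjusted p = 0.0025) and its log2 departure -1.13 ± 0.62 (adjusted p = 0.562). Myog, a differentiation factor of myoblasts, departed by -2.42 (adjusted p = 0.00111) on the linear and by -1.27 ± 0.52 (adjusted p = 0.372) on the log2 scale. Both were named after their values were seen.

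Markers of blood and immune cells had the highest median departure of the lists, 3.25, and 18 of 18 had means above both single-positive means. The 4 called, all above, were C1qa, Spi1, Tyrobp and C3ar1, while 14 did not pass, against 1.01% above among all tested genes. At an unadjusted p under 0.05 in limma 17 were above. On the recovered reads edgeR called 8 above and DESeq2 14. The summed list was 3637, 9018 and 22740 in double-positive litters 1, 2 and 5, 386, 935 and 1355 in GFP-only and 5714, 2983 and 1870 in RFP-only cells, so in litter 1 RFP-only cells had more than double-positive cells. C1qa, a complement gene of macrophages, had 247, 506 and 1050 in double-positive, 316, 180 and 109 in RFP-only and 4.13, 25.7 and 13.6 in GFP-only cells, with a departure of 3.40 ± 0.60 (adjusted p = 0.0252). Csf1r, the receptor of macrophage growth factor, had 368, 950 and 2514 in double-positive, 798, 277 and 339 in RFP-only and 1.65, 24.5 and 31.2 in GFP-only cells. Its departure of 3.70 ± 0.81 did not pass (adjusted p = 0.0535). Of the 10 largest departures above the midpoint by the rule for named genes, Cd33, C5ar1, C3ar1 and Ms4a6d are receptors or surface proteins of myeloid cells, Ccl4 is a chemokine and Ifit1 an interferon-induced gene. Cd33, with no read in GFP-only cells, was at least 4.46 above the midpoint by the floor of 3 reads over the group (adjusted p = 0.0324). The other 5 departed by 4.71, 4.52, 4.47, 4.78 and 4.51 (adjusted p = 0.0489, 0.0436, 0.0323, 0.0325 and 0.0258), and the highest value of all 6 was in double-positive litter 5. With litter as a block C5ar1, C3ar1, Ms4a6d, Ifit1 and Spi1 did not pass (adjusted p = 0.055, 0.0758, 0.0581, 0.0506 and 0.0561). Each of these called genes was lost without any 1 double-positive library and without RFP-only litter 5, except that Tyrobp was called without double-positive litter 1 (adjusted p up to 0.128 for C1qa and 0.207 for C5ar1). The linear departures of C1qa, Spi1, Tyrobp, C3ar1, Cd33 and Ms4a6d, 2.33, 2.09, 2.17, 2.71, 3.77 and 3.01, did not pass (adjusted p = 0.0531, 0.095, 0.0626, 0.0604, 0.0622 and 0.0952). The part of such cells in other departures was not tested.

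Other marker lists had medians nearer to 0. Of 11 pericyte and smooth muscle markers 3 were above, against 1.01% of all tested genes, with a median of 0.11. Against the linear midpoint 2 were above and 1 below, with a median of -0.52, where 1.22% and 2.56% of all tested genes were called. Cnn1, a contractile protein gene, had 524, 560 and 728 in double-positive, 206, 195 and 171 in RFP-only and 70.3, 17.1 and 114 in GFP-only cells, with a departure of 2.57 ± 0.49 (adjusted p = 0.0325). Rgs5, a pericyte signaling regulator, departed by 2.57 ± 0.42 and Mcam, an adhesion molecule of vessel walls, by 1.54 ± 0.22 (adjusted p = 0.0187 and 0.00927), and Rgs5 did not pass from the linear midpoint (1.29, adjusted p = 0.0597). Acta2, the smooth muscle actin gene named after its values were seen, went the other way without passing on the log2 scale (-1.62 ± 0.46, adjusted p = 0.14, and -2.74 on the linear scale, adjusted p = 0.00111). The summed pericyte list overlapped in all groups, at 10540 to 20310 in double-positive, 15360 to 18370 in GFP-only and 14930 to 20080 in RFP-only cells. Of 12 epidermal markers Krt17 was the 1 called, and the summed list overlapped between double-positive (2379 to 2891) and GFP-only cells (1638 to 3222), while RFP-only cells (1263 to 1796) were below every double-positive library. Endothelial (15 tested), erythroid (11), cell cycle (23), dissociation stress (19), ribosomal protein (78) and mitochondrially encoded genes (13) had 0 calls in limma, edgeR and DESeq2, with 1, 2, 3, 0, 0 and 0 genes at an unadjusted p under 0.05 and medians of 0.44, -0.27, 0.25, -0.24, -0.36 and -0.30. Except for cell cycle genes, these medians changed sign between litters. In litters 1, 2 and 5 they were -0.41, 0.89 and 1.11 for endothelial and -0.68, 0.07 and -0.41 for erythroid genes. For dissociation stress they were -0.785, -0.17 and 0.35, for ribosomal protein -0.14, 0.01 and -0.93, and for mitochondrially encoded genes -0.38, 0.06 and -0.55. Car9, a carbonic anhydrase induced by hypoxia, was the 1 glycolysis and hypoxia gene called (2.55 ± 0.44, adjusted p = 0.0216), in a list with a median of 0.06 on the log2 and -0.09 on the linear scale. Cnn1 was called only in the 3 fits without a GFP-only library (up to 0.144), Rgs5 and Car9 were lost without any 1 double-positive library (up to 0.102 and 0.117), and Mcam without double-positive litter 1 or 5 (up to 0.0558).

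**Figure D5:**
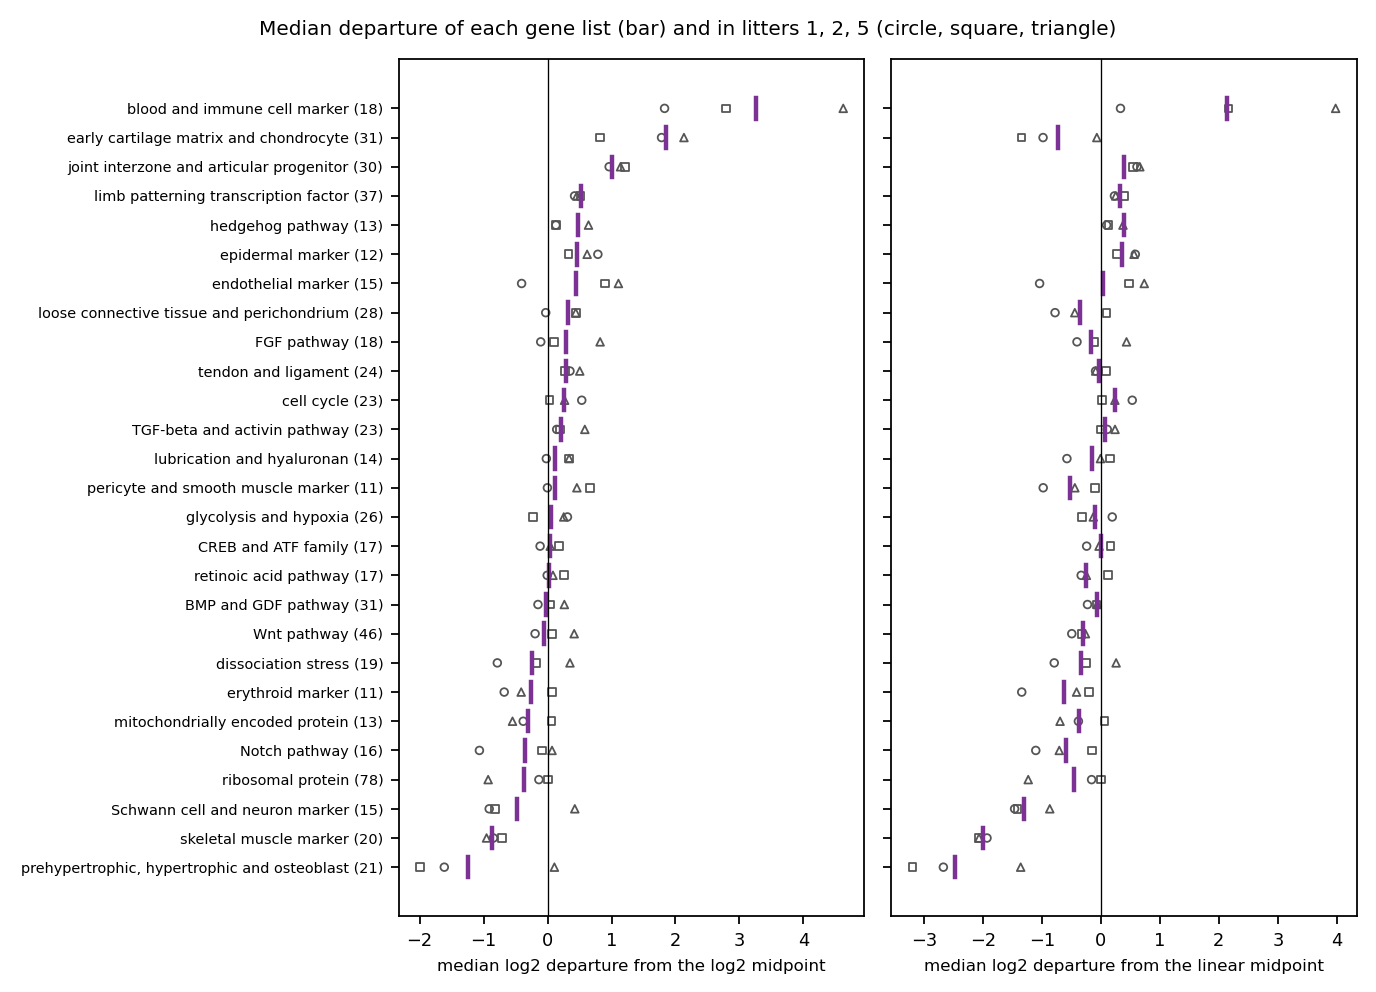
Median departure of the tested members of each gene list from the log2 midpoint (left) and the linear midpoint (right), both log2, with a bar for the estimate and a symbol for each litter; the number of tested genes is in brackets. Interzone genes have a positive median in every litter on both scales, while cartilage genes are positive on the left and negative on the right.

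Among the largest departures were genes with no read in GFP-only cells. Nxph1 (ENSMUSG00000046178, chromosome 6, 8948431 to 9249032), a secreted ligand of neurexins, had 1395, 678 and 689 in double-positive, 106, 258 and 256 in RFP-only and 0 in all 3 GFP-only libraries. With 3 reads over the group as the floor for GFP-only cells, its level was at least 5.94 above the log2 midpoint, and it was 4.45-fold the RFP-only mean. Its difference from RFP-only cells did not pass (2.17, adjusted p = 0.0534), so Nxph1 is not among the genes called above both, although it was called against the midpoint in all 9 fits (adjusted p = 0.000349 with all libraries). Ptpro, a receptor-type phosphatase, had 142, 144 and 230 in double-positive, 93.7, 23.8 and 60.2 in RFP-only and 0 in GFP-only cells, at least 4.42 above the midpoint (adjusted p = 0.00569), and was called in all 9 fits, but not against the linear midpoint (2.66, adjusted p = 0.0557). Myoz1, a sarcomere protein, had 322, 200 and 123 in double-positive, 3.81, 4.53 and 18.2 in RFP-only and 0, 0 and 21.7 in GFP-only cells, with a departure of 5.40 ± 1.01 (adjusted p = 0.0317). The call of Myoz1 was lost without any 1 double-positive library or RFP-only litter 1 or 2 (up to 0.169). Corin and Lims2 lay on the other side. Corin, a membrane protease, had 42.3, 49.1 and 68.8 in double-positive, 683, 661 and 216 in GFP-only and 250, 172 and 165 in RFP-only cells, with a departure of -2.49 ± 0.41 (adjusted p = 0.0188). Lims2, a LIM-domain protein of focal adhesions, had 45.2, 86.5 and 93.5 in double-positive, 75.4, 106 and 40.6 in RFP-only and 1219, 1552 and 2524 in GFP-only cells, with a departure of -2.24 ± 0.40 (adjusted p = 0.0246). Corin was lost without any 1 double-positive library (up to 0.105), and Lims2 also without RFP-only litter 1 or 2 (up to 0.118).

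Among genes that separated the single-positive populations, the median gene in double-positive cells was at neither end. RFP-only and GFP-only cells differed at least 4-fold, with a passing test, in 1875 genes (10.6%), 622 higher in GFP-only and 1253 higher in RFP-only cells. The median gene of the first kind stood at 52.5% of the way from RFP-only to GFP-only cells on the log2 scale (50.1%, 46.3% and 62.5% in litters 1, 2 and 5) and at 23.6% on the linear scale (22.4%, 16.6% and 25.8%). The median gene of the second kind stood at 37.0% on the log2 scale (46.6%, 24.9% and 33.5%) and at 61.7% on the linear scale (75.6%, 47.8% and 67.0%). Some genes lay past an end. On the log2 scale 35 of the first kind were under 0% and 32 over 100%, and 189 and 26 of the second. On the linear scale the median gene was thus nearer the population in which it was low in every litter for the first kind, and in litters 1 and 5 but not in litter 2 for the second. Of the 180 genes above the log2 midpoint, 34 were of the first kind and 70 of the second, and of the 47 below, 9 were of the first kind and 0 of the second.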

How the data were processed

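Bulk polyA libraries were prepared with the Nextera XT kit from RNA of sorted knee cells, per the labels' protocols. FastQC, STAR, Salmon, DESeq2 and mm10 appear, with no version or role, in the submitters' processing notes. The counting mode and strand handling are not given in the sources used here. Overlapping, antisense and near-identical genes cannot be told apart. The deposited values are a signal, normalized counts as the authors scaled them, for 54532 Ensembl genes (23956 with no read). All values (100%) were whole multiples of 1 read to within 0.001, and dividing by it gave reads.

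Populations came from the labels. Departures were tested two-sided with limma 3.58.1 (R 4.3.3, mean-variance trend) on log2(normalized count + 1), which understates changes of low genes, over all 9 libraries, with Benjamini-Hochberg adjustment over 17764 genes and calls under 0.05. Linear departures used log2(value + 1) minus the log2 of the mean single-positive value plus 1, per litter. Their p-values came from a separate limma fit to these 3 values per gene, 1 per litter, not from the fit over all 9 libraries. Positions and lists have no test. On the recovered reads edgeR 4.0.16 called 241 above and 32 below, and DESeq2 1.42.0 called 545 and 223. No pair of replicates agreed within sampling noise (a chi-square of at least 48.2 for each degree of freedom).

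The labels give each number as 1 litter with 1 isolation date, so numbers pair the libraries. Deviations from population means correlated with a median of 0.10 within litters (9 pairs, -0.04 to 0.15) and -0.04 between litters (18 pairs, -0.15 to 0.09).

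The members and gene lists were chosen with earlier results of these data known. Named genes were Creb5, Sox9, Gdf5, Prg4, Erg, Wnt9a, Col2a1 and Ihh. The rule added the 10 largest departures called in each direction with a mean of at least 100 in the highest population, up to 3 called members of each list in its main direction and 1 in the other, the 8 genes farthest above and below both populations, and up to 5 genes above the log2 but under the linear midpoint in every litter. Others are marked as named after their values were seen, and some genes the rule names are not reported here. Alternatives changed the midpoint, block, pseudocount, filter, scaling, variance prior, weights and test, or left out a library or litter. Symbols and coordinates came from GENCODE M21 on GRCm38 (54495 identifiers matched, 37 did not), and promoter windows from RefSeq. The code was tested on simulated data.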

Additional observations from a re-analysis of the deposited data

How the results depend on the processing

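With all 9 libraries, 180 genes were called above and 47 below the midpoint, and 42 above and 11 below both populations. With 1 departure per litter as the unit, the form of the replicate block in which litters are paired by subtraction, these were 526, 221, 74 and 23, with array weights 395, 180, 107 and 54, and with DESeq2 545, 223, 113 and 56. Without the filter on low values they were 100, 19, 38 and 7, with no trend in the variance prior 108, 23, 31 and 7, and after quantile normalization 217, 75, 55 and 20. Against the linear midpoint, also with 1 departure per litter as the unit, 454 genes were below. On the linear scale positions became 23.6% for genes higher in GFP-only and 61.7% for genes higher in RFP-only cells. With litter as a fixed block (145, 44, 37 and 13) or a random block (195, 53, 43 and 12) counts stayed within 1.5 times. Calls against the midpoint lost under the fixed block among genes described above are given there. Some calls outside both populations were also lost under the fixed block. Differences from RFP-only cells did not pass for Rcan1, Tbx5, Cer1 and Lmo3 (limma adjusted p = 0.0762, 0.0511, 0.0506 and 0.0541). Those from GFP-only cells did not pass for Tgfbi and Gfra3 (0.0551 and 0.0508). Leaving out 1 library gave 39 to 328, 6 to 136, 8 to 71 and 2 to 29 genes, and leaving out 1 litter 0 to 111, 0 to 63, 1 to 26 and 0 to 8. In limma without litter 1 these were 0, 0, 1 and 2 (860, 369, 197 and 64 at an unadjusted p under 0.05), without litter 2 they were 3, 0, 4 and 0 (895, 441, 130 and 84), and edgeR and DESeq2 were run only on all libraries. Positions moved within the spread of litters when a library (47.1% to 58.2% and 31.0% to 43.4%) or a litter (49.4% to 57.0% and 31.6% to 41.3%) was left out. Signs turned against the linear midpoint for Fzd9 (-0.16), Col2a1 (-0.80), Cnmd (-0.62), Acan (-0.95), Snorc (-3.22) and Comp (-2.98). Wnt9a turned to 0.37 without GFP-only litter 2, 0.04 without litter 1 and 0.13 without litter 2, and Comp to -0.29 without double-positive litter 5 and to -0.01 without RFP-only litter 1. Over all fits that left out a library or litter Wnt9a ranged from -0.78 to 0.37 and Comp from -0.29 to 1.20. The cause was not tested for any of these, beyond the fewer samples of the fits that leave some out. The 3 libraries per population, with 25199258 to 47079305 reads each, limit the precision of every departure.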

Other observations

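Enzymes of cholesterol synthesis had negative departures in double-positive cells. On a list of 23 chosen after values were seen, all tested, 4 were called below the midpoint and 19 did not pass, with a median departure of -0.71 and none positive. Among all tested genes 0.265% were below. Against the linear midpoint 8 were called below, where 2.56% of all tested genes were. Hsd17b7, a late enzyme of the pathway, had 402, 575 and 450 normalized counts in double-positive, 943, 687 and 717 in RFP-only and 1686, 1614 and 1700 in GFP-only cells of litters 1, 2 and 5, in 3 groups without overlap. Its departure was -1.27 ± 0.20 (adjusted p = 0.0187), lost without double-positive litter 1 or 5 (up to 0.105). Msmo1, a sterol methyl oxidase, had 4639, 4572 and 6172 in double-positive, 7765, 7106 and 6504 in RFP-only and 14631, 13700 and 16736 in GFP-only cells, with a departure of -1.02 ± 0.17 (adjusted p = 0.0188). Differences from RFP-only cells did not pass for Hsd17b7 (-0.72, adjusted p = 0.161) or Msmo1 (-0.48, adjusted p = 0.277). None of the list was called below both populations. Mvd and Idi1, enzymes of isoprenoid synthesis, departed by -1.14 ± 0.23 and -1.02 ± 0.20 (adjusted p = 0.0371 and 0.0371), and with litter as a block neither passed (0.0532 and 0.0632). Msmo1 was lost without double-positive or RFP-only litter 1 or 2 (up to 0.11), Mvd was called only without GFP-only litter 2 or 5 or RFP-only litter 5 (up to 0.164 in the others), and Idi1 only without GFP-only or double-positive litter 5 (up to 0.176). The summed list was 62870 to 78750 in double-positive, 86860 to 101300 in RFP-only and 153200 to 167800 in GFP-only cells, and the groups did not overlap.

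Most genes of synapse and axon adhesion had departures of the other sign from the log2 midpoint. On a list of 30, also chosen after values were seen, 28 were tested. Of these, 6 were called above, against 1.01% of all tested genes, and 22 did not pass, with a median departure of 1.35 and 21 positive. Against the linear midpoint 3 were above and 2 below, with a median of 0.32, and Cntnap4, Cbln1 and Cntn6 did not pass (adjusted p = 0.198, 0.134 and 0.58). Among these were Nxph1, Cntnap4, Ntng1, Cbln1 and Cntn6. Cntnap4, a neurexin-family protein, had 1296, 1013 and 576 in double-positive and 891, 571 and 1298 in RFP-only cells, which overlapped, against 25.6, 58.8 and 13.6 in GFP-only cells. Its departure was 2.53 ± 0.45 (adjusted p = 0.0258). Ntng1, a netrin-related axon guidance protein, had 922, 762 and 592 in double-positive, 640, 478 and 556 in RFP-only and 145, 185 and 103 in GFP-only cells, with a departure of 1.42 ± 0.27 (adjusted p = 0.0319). Cbln1, a secreted synaptic organizer, departed by 3.55 ± 0.70 (adjusted p = 0.0362). Cntn6, a contactin with no read in GFP-only cells, was at least 2.76 above the midpoint by the floor of 3 reads over the group (adjusted p = 0.0494). With litter as a block Cbln1 and Cntn6 did not pass (0.0524 and 0.079). Leaving out 1 library at a time, Nxph1 was called in all 9 fits. Cntnap4 was lost without any 1 double-positive library or RFP-only litter 1 or 2 (up to 0.137). Ntng1 and Cbln1 were called only without a GFP-only library (up to 0.176 and 0.193 in the others), and Cntn6 only without GFP-only litter 5 (up to 0.229). The summed list was 8601 to 10250 in double-positive and 10590 to 11610 in RFP-only against 1834 to 4766 in GFP-only cells.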
